A study of Homo sapiens with 4 samples.

Results

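The genes described here are 39 genes of ribosome production and of metabolism driven by the transcription factor MYC, taken by their symbols from a list and found in all cases among the 23615 genes of the deposited table. They encode nucleolar factors of rRNA synthesis and processing, subunits and initiation factors of RNA polymerase I, and the enzymes ODC1, CAD and LDHA. Transcripts were measured by RNA-seq in K562 cells, a human line grown from chronic myeloid leukaemia that carries the BCR-ABL fusion. The treated group received clofarabine, a purine nucleoside analogue, at 5 µM in 0.005% DMSO for 3 h (2 libraries, C0 and C1). The control group received DMSO, the solvent, for the same 3 h (2 libraries, V0 and V1), and all were cultured in RPMI with serum. The table names its conditions with the letters C and V alone. C was taken to stand for clofarabine and V for vehicle, and each direction given here would turn around if the letters meant the opposite. Nothing in the labels says that the 2 samples of a group came from separate cultures, so the p-values cover only how far these libraries differ from one another, which may be technical spread.

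Ribosomes are built in the nucleolus. RNA polymerase I copies the rDNA repeats into a long precursor, which snoRNA-guided enzymes modify and which processing factors cut and fold into the small and the large subunit. MYC is known to bind near many of these genes and to raise their transcription, and ribosome production is a large part of the biosynthesis of a dividing leukaemia cell. Treatments that stop rRNA synthesis are known to disturb the nucleolus and to release ribosomal proteins.

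Between 8370550 and 23888755 fragments were assigned to genes in a library, and each of the 39 genes had at least 284 fragments in each library, so none was lost to the filter on low counts that left 11761 genes for testing. Their fragments made up 1.12% and 1.10% of the total in the DMSO libraries V0 and V1, and 1.13% and 1.16% in C0 and C1. All 9 fixed markers of K562 cells, globin and erythroid genes among them, stood at 1 FPKM or more in all 4 libraries. FPKM is the authors' level per transcript length and library total. Of 11 markers of other cell types, 3 were listed at 0 throughout and 2, CD3D and EPCAM, were at 1 FPKM or more in every library. Their summed level was 78.7 to 82.8 FPKM in clofarabine and 75.02 to 79.6 in DMSO, and its part in the results was not tested.

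After 3 h of clofarabine, transcripts of these genes stood close to their level in DMSO. By edgeR's quasi-likelihood test with Benjamini-Hochberg adjustment over all genes, 1 of the 39 fell (POLR1B, which encodes the second-largest subunit of RNA polymerase I), none rose and 38 were not called at an adjusted p under 0.05. That is 2.56% of the genes, where 2.57% of all 11761 tested genes were called, 1.54% as higher and 1.03% as lower. Of those calls 181 were higher and 121 lower, a split that was 170 to 200 with library sizes alone and 19 to 37 on the log2(FPKM + 1) scale. At an unadjusted p under 0.05 there were 8 of 39 (20.5%), where all tested genes gave 14.2% and the 5683 other genes within the same range of expression gave 20.4%. Of those 5683 genes 157 were called as higher and 85 as lower, and the groups did not overlap for 1530 as higher and 1266 as lower. The groups' libraries did not overlap for 15 genes (38.5%), 9 higher and 6 lower, where 43.2% of all tested genes did not overlap, 22.0% higher and 21.3% lower. The share of calls and the share of genes without overlap were therefore near or under the background. In bulk RNA a change in the share of cells that make a transcript and a change in its amount per cell cannot be told apart.

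The sizes of the changes, as shares of a library, were bounded closely by the spread among these libraries, which may be technical. The median log2 fold change of the 39 genes was 0.034, with 25 positive and 14 negative values, beside a median of 0.0020 over all genes tested. Positive values made up 64.1% of the 39 genes, 50.6% of all genes tested and 53.4% of the other genes in the same range of expression. Among the 39 genes the lowest value was −0.34 and the highest 0.25. Their median absolute log2 fold change was 0.062, beside 0.084 for the other genes in the same range of expression. For all 39 genes the 95% interval lay within a 1.5-fold change in either direction, and for 29 it lay within 1.25-fold. Of the 5683 other genes in the same range of expression, 5578 lay within 1.5-fold and 4117 within 1.25-fold, so such bounds were common there. The direction of the median was not stable. It was −0.0015 with library sizes alone as the scaling, −0.0096 without C1 and −0.0089 without V1, and the number of positive values was 19, 16 and 18 in that order.

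**Figure D1:**
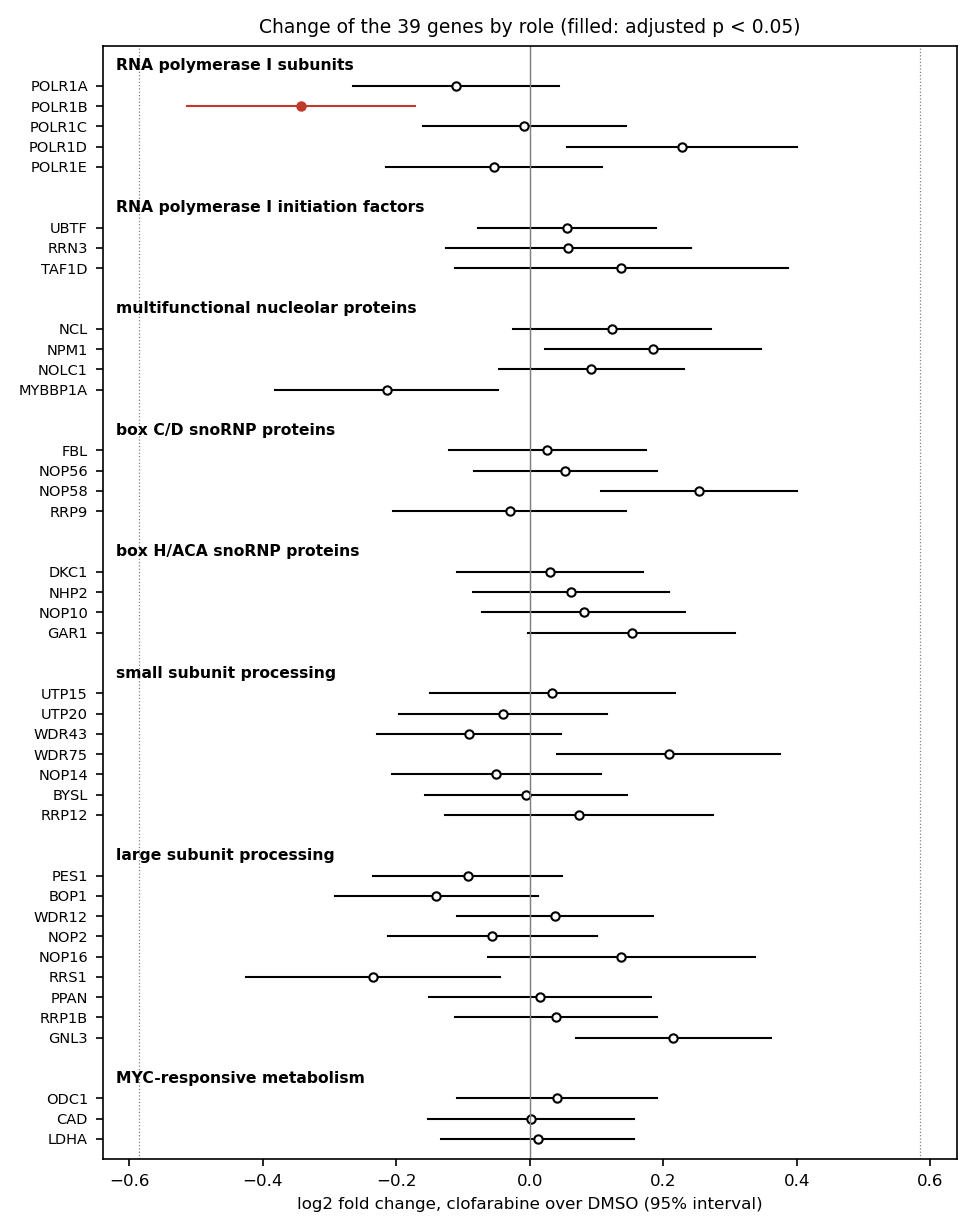
Log2 fold change of clofarabine over DMSO for the 39 genes, grouped by role, with 95% intervals from edgeR; the horizontal axis is log2 and the dotted lines mark 1.5-fold. POLR1B at −0.34 is the 1 filled point, and the intervals of the other 38 genes all lie between the dotted lines.

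The genes differed far more in level than in response. Per transcript length, NPM1, a nucleolar chaperone of ribosomal proteins and histones, was highest with 1994 ± 79.6 FPKM in DMSO (mean ± SD, n = 2). It was followed by ODC1, the rate-limiting enzyme of polyamine synthesis, at 591 ± 31.7 FPKM, LDHA, the muscle-type subunit of lactate dehydrogenase, at 545 ± 12.8, and FBL, the methyltransferase of box C/D snoRNPs, at 509 ± 18.5. The gaps between ODC1, LDHA and FBL were close to the summed SDs of the neighbours, so their order is not firm. The low end was held by UTP20, a large scaffold of the small subunit processome, at 11.5 ± 0.141 FPKM, and by POLR1B at 12.9 ± 0.166. Subunits of one enzyme were unequal at the RNA level, since POLR1C and POLR1D, which RNA polymerase III uses as well, stood at 97.0 ± 0.569 and 89.96 ± 6.57 FPKM beside 15.4 ± 0.380 for POLR1A.

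**Figure D2:**
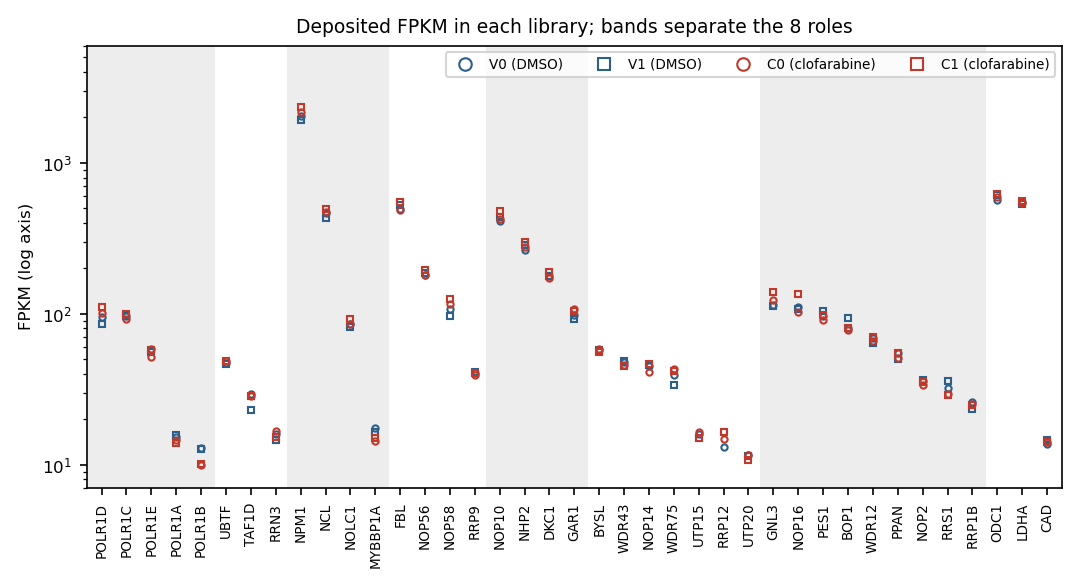
Deposited FPKM (log axis) of each of the 39 genes in each of the 4 libraries, sorted by mean level within 8 roles. Levels run from about UTP20, at 11.5 FPKM in DMSO, to NPM1, at 1994 FPKM, and the 4 libraries of a gene lie close together.

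RNA polymerase I consists of a catalytic pair of large subunits with smaller partners. POLR1B, whose product forms the active centre together with that of POLR1A, measured 69.1 CPM in V0 and 68.1 in V1 against 53.5 in C0 and 54.5 in C1. CPM is the usual rescaling of a fragment count by its library total, here after TMM adjustment. Both clofarabine libraries lay below both DMSO libraries, and the gap between the nearest of them was many times the difference within either group. Those differences rest on 2 libraries a group and 587 to 1260 fragments a library, so they are a weak measure of spread. The log2 fold change was −0.34 (SE 0.082, 95% interval −0.51 to −0.17, edgeR adjusted p = 0.0256), a fall of 21.2%. The fold change hardly moved among the alternatives, from −0.32 to −0.38, but the call did. DESeq2 gave an adjusted p of 0.134, where 1.75% of its 9503 genes were called, and the log2(FPKM + 1) scale gave 0.209. Leaving out either DMSO library ended the call as well (adjusted p = 0.119 with V0 removed, 0.159 with V1 removed). Over all alternatives the adjusted p ran from 0.000844 to 0.209.

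The 4 other subunits were not called. POLR1A, the largest subunit, had 99.9 CPM in V0, 104 in V1, 96.8 in C0 and 92.2 in C1, so that the groups were ordered as for POLR1B but by less (log2 fold change −0.11, SE 0.075, edgeR adjusted p = 0.571). POLR1D, an assembly subunit shared with RNA polymerase III, lay the other way, at 75.2 and 67.6 CPM in V0 and V1 and at 80.0 and 86.6 in C0 and C1 (log2 fold change 0.23, SE 0.083, edgeR adjusted p = 0.180). Its groups did not overlap, but its DMSO libraries were further from each other than V0 was from C0. POLR1D was called as higher without C0 (adjusted p = 0.0468), a fit that called 5.36% of all genes. POLR1C, its assembly partner, and POLR1E, a subunit with a role in initiation, had log2 fold changes of −0.0084 and −0.054, and their groups overlapped.

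The promoter of POLR1B is shown because it belongs to the 1 gene of the 39 that was called. The RefSeq table gives its most upstream start on GRCh38.p14, a later build than the hg19 of the counts, and the 100 bases before that start lie at chr2:112541936-112542035 on the plus strand and are 63.0% G or C. No capitals appear, since the E-box, the sequence CACGTG that MYC with its partner MAX is known to bind and that reads the same on both strands, is not among these letters.
POLR1B: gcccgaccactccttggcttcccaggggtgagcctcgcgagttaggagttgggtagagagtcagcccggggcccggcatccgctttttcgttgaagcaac

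Initiation at the rDNA promoter needs UBTF, an HMG-box protein that bends and marks the active repeats, RRN3 (TIF-IA), which links the polymerase to the promoter and responds to growth signals, and the SL1 complex, of which TAF1D is a part. UBTF was the steadiest of them, with 217 and 214 CPM in V0 and V1 and 223 and 225 in C0 and C1. Its groups did not overlap, but they differed by a log2 fold change of only 0.056 (SE 0.064, 95% interval −0.078 to 0.19, edgeR adjusted p = 0.775). RRN3 had 58.1 CPM in V0, 53.5 in V1, 60.9 in C0 and 55.4 in C1, with overlap (log2 fold change 0.058, −0.0060 without C0 and −0.0089 without V1). Pseudogene copies of RRN3 exist, so its share of fragments is uncertain. TAF1D was the most scattered, since V1 with 26.2 CPM stood apart from 33.4 in V0, 32.6 in C0 and 32.5 in C1. Its log2 fold change of 0.14 (SE 0.12) was −0.045 without V1.

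**Figure D3:**
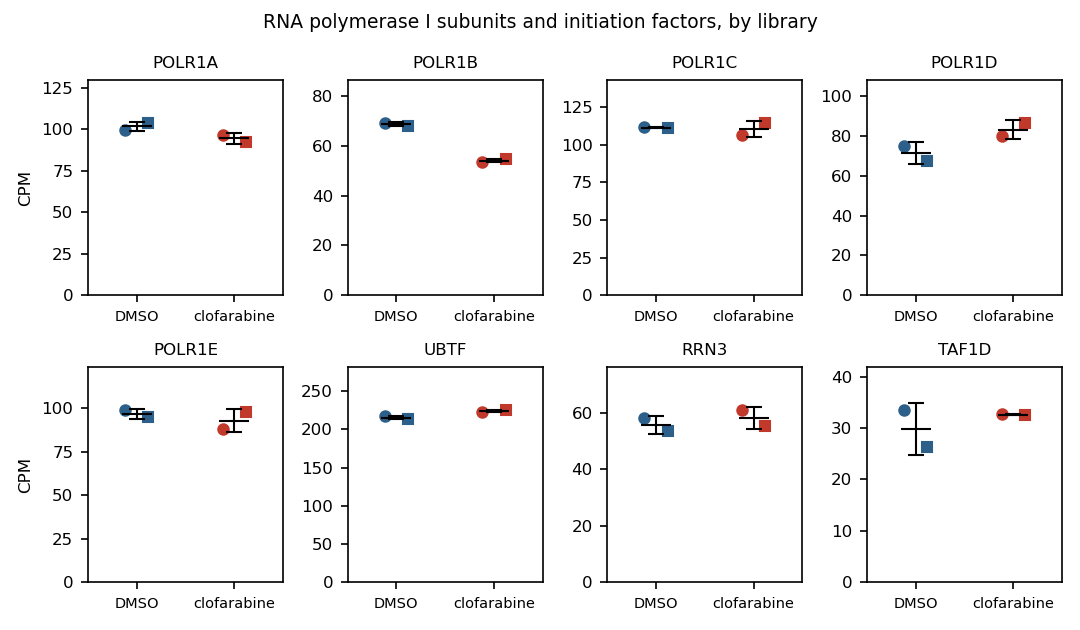
CPM of the 5 RNA polymerase I subunits and 3 initiation factors in each library (circles V0 and C0, squares V1 and C1; bars are mean ± SD, n = 2; each axis starts at 0). POLR1B falls from 68.6 to 54.0 CPM with no overlap, while RRN3 and TAF1D overlap between the groups.

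Of the 4 multifunctional nucleolar proteins none was called, though 3 were higher and 1 lower with no overlap of the libraries, where 43.2% of all tested genes did not overlap. NPM1 had 2585 CPM in V0, 2453 in V1, 2738 in C0 and 2987 in C1 (log2 fold change 0.18, SE 0.078, edgeR adjusted p = 0.274). NCL, which encodes nucleolin, an RNA-binding histone chaperone of the nucleolus, had 1192 and 1109 CPM in DMSO and 1230 and 1276 in clofarabine (log2 fold change 0.12, SE 0.072, edgeR adjusted p = 0.478). In both genes the nearest libraries of the groups, V0 and C0, were closer to each other than the libraries within the clofarabine group for NPM1, or within the DMSO group for NCL. NOLC1, a phosphoprotein that shuttles between the nucleolus and Cajal bodies, had a log2 fold change of 0.092, and MYBBP1A, a nucleolar partner of RNA polymerase I and of several transcription factors, had one of −0.21 (SE 0.081, edgeR adjusted p = 0.201). NPM1 was called as higher without C0 (log2 fold change 0.25, adjusted p = 0.0010). Processed copies of NPM1 exist in the genome, so that its fragments may in part be assigned elsewhere.

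The box C/D snoRNPs place 2′-O-methyl groups on rRNA. Their core proteins FBL, NOP56 and NOP58 sit together on each particle, and RRP9 binds the U3 snoRNA of early cleavage. NOP58 came nearest to a call after POLR1B, with 194 CPM in V0, 175 in V1, 210 in C0 and 228 in C1 (log2 fold change 0.25, SE 0.071, edgeR adjusted p = 0.0616). Its 2 clofarabine libraries were above both DMSO libraries, and it was called as higher in 4 alternatives. These were no filter on low counts (adjusted p = 0.0185, 2.83% of all genes called), a correction for transcript length (adjusted p = 0.00693, 4.06% called), the library number as a block (adjusted p = 0.000997, 6.77% called) and the fit without C0 (adjusted p = 0.000668, 5.36% called). At an adjusted p under 0.1 NOP58 and POLR1B were called, 2 of the 39, where 3.96% of all genes were. With each library left out in turn the log2 fold change of NOP58 ran from 0.17 to 0.33. NOP56, its paralogue on the same particle, had 345 and 354 CPM in DMSO and 349 and 376 in clofarabine, with overlap (log2 fold change 0.053, −0.0046 without C1). FBL had 490 and 518 CPM in DMSO and 482 and 543 in clofarabine, so that the clofarabine libraries enclosed the DMSO ones (log2 fold change 0.026, −0.067 without C1, −0.012 without V0 and −0.010 with library sizes alone). RRP9 had a log2 fold change of −0.030.

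The box H/ACA snoRNPs convert uridines of rRNA to pseudouridine. All 4 of their core proteins had positive log2 fold changes, from 0.030 to 0.15, and none was called. GAR1, a small glycine- and arginine-rich subunit, had 92.1 and 87.9 CPM in DMSO and 100.2 and 99.7 in clofarabine, with no overlap (log2 fold change 0.15, SE 0.075, 95% interval −0.0023 to 0.31, edgeR adjusted p = 0.362). DKC1, the pseudouridine synthase dyskerin, had 435 CPM in both DMSO libraries, 424 in C0 and 465 in C1, so that the treated libraries fell on either side of the controls (log2 fold change 0.030). NOP10, the smallest of the proteins, had 142 and 150 CPM in DMSO and 145 and 164 in clofarabine (log2 fold change 0.081), and NHP2, its RNA-binding partner, had a log2 fold change of 0.062. The signs of DKC1, NHP2 and NOP10 turned when C1 was left out (−0.042, −0.0082 and −0.016), so only GAR1 kept its sign in each fit with a library left out.

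Early cleavage of the precursor and assembly of the small subunit were represented by 7 genes, 3 positive and 4 negative, with a median log2 fold change of −0.0054 and none called. WDR75, a component of the UTP-A complex, which joins the nascent precursor first, had 100.2 CPM in V0, 85.6 in V1, 109 in C0 and 106 in C1 (log2 fold change 0.21, SE 0.081, edgeR adjusted p = 0.220). V1 was the outlying library there, and without it the log2 fold change was 0.088. Its UTP-A partners UTP15 and WDR43 had log2 fold changes of 0.034 and −0.091, and differences between the 3 genes were not tested. BYSL, a late factor of 40S maturation, had 105 and 106 CPM in DMSO and 108 and 103 in clofarabine (log2 fold change −0.0054, 95% interval −0.16 to 0.15). UTP20, NOP14 and RRP12, which act in the processome and in 40S export, had log2 fold changes of −0.040, −0.050 and 0.074, each with overlapping groups. NOP14 has an annotated antisense gene. The libraries were directional, but whether the counting used strand is not stated, so reads of the pair may be mixed.

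Factors of the large subunit numbered 9, with 5 positive and 4 negative log2 fold changes, a median of 0.015 and none called. PES1, BOP1 and WDR12 form the PeBoW complex, which is needed to remove the internal spacer before the 28S rRNA. BOP1 had 180 CPM in V0, 210 in V1, 174 in C0 and 181 in C1 (log2 fold change −0.14, SE 0.073, edgeR adjusted p = 0.406), with V1 alone standing clear of the other libraries and a value of −0.032 without it. PES1 had −0.093 and WDR12 0.038, and the sign of WDR12 turned without C1 (−0.0096) and without V1 (−0.029). GNL3, the GTPase nucleostemin, had 212 and 210 CPM in DMSO and 229 and 260 in clofarabine (log2 fold change 0.22, SE 0.070, edgeR adjusted p = 0.126). GNL3 was called after correction for transcript length (adjusted p = 0.0219), with the library number as a block (adjusted p = 0.00943) and without C0 (adjusted p = 0.000697), while its log2 fold change was 0.11 without C1.

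RRS1, a factor that helps bring the 5S particle into the growing 60S subunit, had 49.7 and 55.9 CPM in DMSO and 45.2 and 44.9 in clofarabine (log2 fold change −0.23, SE 0.092, edgeR adjusted p = 0.225). Its groups did not overlap, and after POLR1B it had the lowest log2 fold change of the 39. NOP16 showed the widest gap within a group, with 93.3 and 90.2 CPM in DMSO but 86.7 in C0 and 114 in C1. Its log2 fold change of 0.14 was 0.31 without C0, where it was called (adjusted p = 0.00964), and −0.083 without C1. NOP2, an rRNA cytosine methyltransferase, RRP1B, a partner of the phosphatase PP1 in the nucleolus, and PPAN had log2 fold changes of −0.056, 0.039 and 0.015. Before rounding, the deposited estimates of PPAN were the only ones among the 39 genes that were not exactly whole (no tolerance), in all 4 libraries, and a readthrough transcript that joins it to P2RY11 is listed separately.

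The enzymes known as MYC-responsive gave log2 fold changes from 0.0014 to 0.041, and none was called. CAD, the trifunctional enzyme that starts pyrimidine synthesis, had 96.9 and 104 CPM in DMSO and 100.2 and 100.9 in clofarabine (log2 fold change 0.0014, 95% interval −0.15 to 0.16). LDHA had 1123 and 1091 CPM in DMSO and 1094 and 1138 in clofarabine (log2 fold change 0.012, 95% interval −0.13 to 0.16). ODC1 had 1082 and 1173 CPM in DMSO and 1132 and 1188 in clofarabine (log2 fold change 0.041, 95% interval −0.11 to 0.19). All 3 overlapped between the groups. By the spread among these libraries, their intervals exclude a change of 1.25-fold in either direction. In the same libraries MYC itself fell from 292 and 298 CPM in DMSO to 195 and 187 in clofarabine (log2 fold change −0.63, SE 0.065, edgeR adjusted p = 1.88e-06).

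The other genes of the pathway, set down as 6 lists, came to 162 tested genes. Of these 6 rose, none fell and 156 were not called, with a median log2 fold change of 0.036. Of their values 96 (59.3%) were positive, beside 50.6% over all genes tested and 53.4% in the expression range of the 39 genes. Over all genes tested 1.54% were called as higher and 1.03% as lower, and among the 5683 genes within the expression range of the 39 genes 2.76% were called as higher. DESeq2 and the log2(FPKM + 1) scale called 1 of them as higher, POLR2L, which was also the only one called without V1. With library sizes alone the number was 3.

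Among 13 further subunits and factors of RNA polymerase I, 2 rose. POLR2L, a small subunit common to the 3 nuclear RNA polymerases and the product of a short transcript, went from 59.5 and 60.2 CPM in DMSO to 77.6 and 86.6 in clofarabine. Its log2 fold change was 0.46 (SE 0.084), with an edgeR adjusted p of 0.00244. TTF1, which ends transcription of the rDNA unit, went from 37.0 and 31.0 to 44.9 and 44.6 CPM, with an edgeR adjusted p of 0.0361 for a log2 fold change of 0.41 ± 0.10 (SE), and without V1 its log2 fold change was 0.27 (adjusted p = 0.663), in a fit that called 130 of all genes in place of 302.

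Of 44 small subunit factors 1 rose, KRR1, a processome protein, by 0.33 ± 0.083 (SE) on the log2 scale with an edgeR adjusted p of 0.0359, a call lost with V0 removed (adjusted p = 0.143) or V1 removed (0.317) although the log2 fold change stayed at 0.33 and 0.32. Of 49 large subunit factors 2 rose. They were CEBPZ, the human counterpart of a yeast factor of early 60S assembly (log2 fold change 0.30 with SE 0.071, edgeR adjusted p = 0.0241, or 0.24 with adjusted p = 0.481 when V1 was removed), and NSA2 (0.25 with SE 0.067, edgeR adjusted p = 0.0442). The adjusted p of NSA2 was 0.0797 with C1 removed, 0.146 with V0 removed and 0.603 with V1 removed, at log2 fold changes of 0.23, 0.29 and 0.21. Of 12 genes of snoRNP assembly ZNHIT3 rose by 0.34 ± 0.087 (SE) on the log2 scale (edgeR adjusted p = 0.0367), with 0.24 (adjusted p = 0.220) when C1 was left out and 0.28 (adjusted p = 0.456) when V1 was. None of 21 genes of the RNA exosome and rRNA trimming was called by edgeR or by DESeq2, with 5 at an unadjusted p under 0.05. EXOSC9, a core ring subunit, had the smallest p (log2 fold change 0.30, edgeR adjusted p = 0.0783), and its adjusted p ran from 0.0013 to 0.874 over the alternatives. None of 23 further genes of MYC-responsive metabolism was called by edgeR or DESeq2, with 2 (8.70%) at an unadjusted edgeR p under 0.05. SRM, the spermidine synthase, had the smallest p (log2 fold change −0.20 with SE 0.066, edgeR adjusted p = 0.143). Over the alternatives that kept all libraries its adjusted p ran from 0.0198 (edgeR, length trend removed) to 0.358 (DESeq2), and its log2 fold change was −0.18 without V1.

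**Figure D4:**
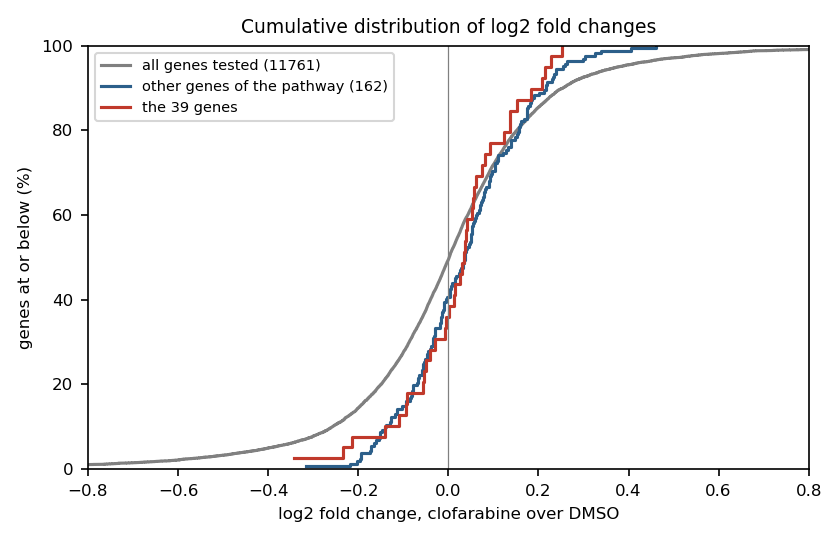
Cumulative share of genes (vertical axis, %) at or below each log2 fold change (horizontal axis, shown from −0.8 to 0.8) for all 11761 genes tested, 162 other genes of the pathway and the 39 genes. The curves of both lists are steeper than that of all genes and cross 50% near 0, at medians of 0.036 and 0.034. The median absolute log2 fold change was 0.117 over all genes and 0.084 for other genes in the expression range of the 39 genes. It was 0.085 for the 162 genes and 0.062 for the 39 genes.

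Transcript length and library C1 moved with part of these values. Of the 39 genes, 10 had transcripts in the 2 shortest of 10 equal length classes, and in them the median log2 ratio of C1 to C0 was 0.12, beside 0.060 in the other 29. The short genes, among them NPM1, POLR1D, GAR1, NOP10 and NOP16, gave 8 positive values around a median of 0.11, while the 29 longer ones had a median of 0.015. Without C0 the 5 genes NPM1, NOP58, NOP16, POLR1D and GNL3 were called as higher, in a fit that called 454 of all genes as higher (3.82%) and 182 as lower. The median log2 fold change of the 39 genes was 0.064 without C0 and −0.0096 without C1. Each of these fits keeps a single clofarabine library, so their numbers of calls are not compared. The part of C1 and of length in these values was not tested further. With the length trend removed, the median log2 fold change of the 39 genes was 0.029, beside 0.034 without that correction. After the correction for length, NOP58 and GNL3 were called as higher, POLR1B stayed called as lower (log2 fold change −0.32, adjusted p = 0.0121), and NOP10, NHP2 and FBL had negative values (−0.068, −0.019 and −0.016).

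**Figure D5:**
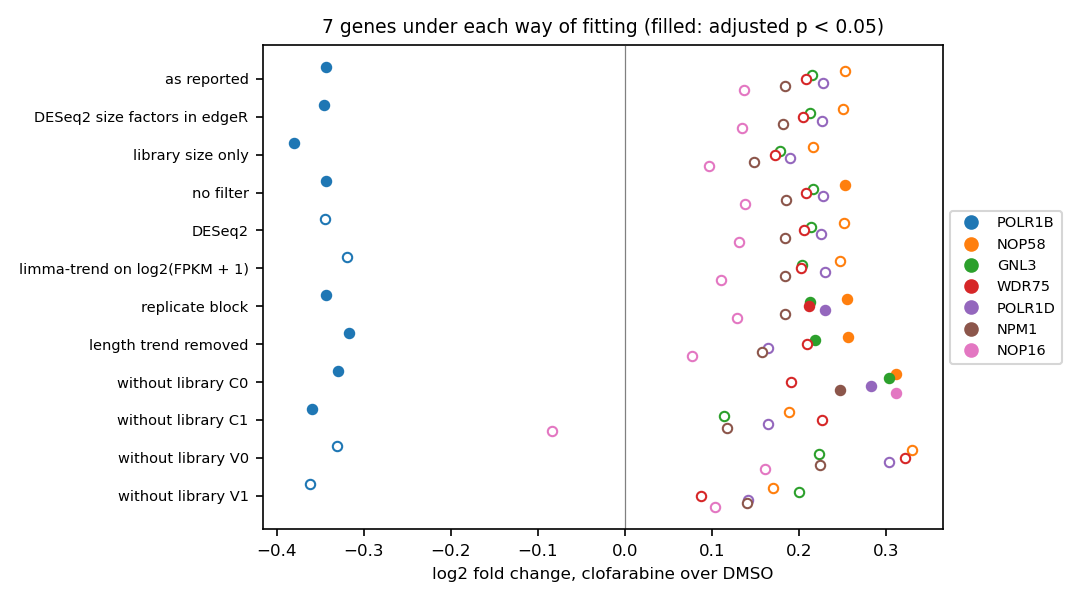
Log2 fold change (horizontal axis) of POLR1B and of 6 genes with positive values under each way of fitting (vertical axis); filled points have an adjusted p under 0.05. POLR1B keeps a value between −0.38 and −0.32 throughout, whereas NOP16 runs from −0.083 without C1 to 0.31 without C0.

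The E-box was searched in the 250 bases before the most upstream RefSeq start (GRCh38.p14) of the 32 genes that the promoter table lists. It was present in 3 of them (9.38%), where 9.18% of the 8639 tested genes with a listed promoter and 6.46% of all 27305 promoters held it. The windows with a match are shown because they are the candidate MYC-binding letters among these genes, with up to 27 bases on each side and the E-box in capitals. LDHA has 2, at 185 and 87 bases before its start (chr11:18394351-18394410 and chr11:18394449-18394508, plus strand), NOP10 has 2, at 170 and 11 bases (chr15:34343274-34343333 and chr15:34343137-34343174, minus strand), and UTP20 has 1, at 10 bases (chr12:101280068-101280104, plus strand).
LDHA, distal: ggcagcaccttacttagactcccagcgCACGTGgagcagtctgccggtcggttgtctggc
LDHA, proximal: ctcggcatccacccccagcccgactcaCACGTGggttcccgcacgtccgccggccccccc
NOP10, distal: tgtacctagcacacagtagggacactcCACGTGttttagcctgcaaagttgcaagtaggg
NOP10, proximal: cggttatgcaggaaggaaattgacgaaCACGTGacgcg
UTP20: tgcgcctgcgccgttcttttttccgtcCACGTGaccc

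These 3 genes had log2 fold changes of 0.012, 0.081 and −0.040, all with overlapping groups, and the 29 genes without a match in the window had a median of 0.034. A match in these letters describes the sequence and not occupancy, and sites further up or inside the genes lie outside the window.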

How the data were processed

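Per the submitters' processing notes, cutadapt 1.5, TopHat2 2.0.13 and Cuffdiff 2.2.1 were used with the build hg19. Libraries were directional, per the labels' protocols. The sources used here name no gene annotation, strand setting or RNA selection step. The deposited table gives estimated counts of fragments per gene and library, which Cuffdiff need not leave whole. The deposited scaled fragments, a signal equal to the counts times 1 factor per library, served only to derive transcript length from their ratio to FPKM. The FPKM values were scaled by the authors for transcript length and library total.

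Counts were rounded, filtered with filterByExpr (minimum count 10), scaled by TMM and tested with edgeR 4.0.16 under R 4.3.3, in a model that held only the group. Adjusted p-values are Benjamini-Hochberg values over all 11761 genes tested, and genes under 0.05 were called. The spread that edgeR estimated in common for all genes was a coefficient of variation of 6.01%. Standard errors were derived as |log2 fold change| / √F.

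All 39 genes are covered. Values by library are given for called genes, for those of smallest p or highest FPKM in each role, and for 13 genes set down by name. From each other list, up to 2 called genes per direction, or the gene of smallest p, are named. Other genes that appear with values in single libraries were chosen after their values were seen. The genes and lists were chosen with earlier results of these data known. Alternatives were DESeq2 1.42.0 and its size factors, library size alone, no filter, limma 3.58.1 on log2(FPKM + 1), the library number as a block, removal of a loess trend (span 0.3) on transcript length, a threshold of 0.1, and leaving out each library. Where 1 library of a group remained, its spread was taken to equal that of the other group. Promoter sequences are from RefSeq. The chi-square per degree of freedom was 6.85 between C0 and C1 and 2.81 between V0 and V1, so no libraries were merged as one.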

Additional observations from a re-analysis of the deposited data

How the results depend on the processing

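Over all genes 302 were called, 478 with no filter, 166 with DESeq2, 56 on the log2(FPKM + 1) scale, 477 with the length trend removed, 466 at an adjusted p under 0.1, and 130 (without V1) to 636 (without C0) with a library left out. Among the 39 genes the number called as higher was 0, but 1 with no filter and at the looser threshold, 2 with the length trend removed, and 0 to 5 with a library left out. The number called as lower was 1, but 0 with DESeq2, 0 on the log2(FPKM + 1) scale, and 0 (without V0 or V1) to 1 with a library left out. Of the other pathway genes 6 were called as higher, but 3 with library sizes alone, 1 with DESeq2, 1 on the log2(FPKM + 1) scale, 12 with the length trend removed, 11 at the looser threshold, and 1 to 12 with a library left out. None was called as lower, but 1 (SRM) with the length trend removed and 0 to 2 with a library left out (WDR46 and NOB1 without C1). With the library number as a replicate block, 796 genes were called, 4 of the 39 as higher (NOP58, POLR1D, WDR75 and GNL3), POLR1B as lower, and 13 other pathway genes as higher and 1 as lower. Whether libraries of the same number share a culture or day is not known, and the table's 0 and 1 are not tied to the labels' replicates. Over all genes tested, the deviations of C0 and V0 from their group means had a correlation of −0.0038. A single value over all genes cannot show whether part of the genes share a batch.

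The median log2 fold change of the 39 genes, 0.034, ran from −0.0096 to 0.064 with a library left out and was −0.0015 with library sizes alone. Signs of uncalled genes turned with library sizes alone for FBL (−0.0102), DKC1 (−0.0060), UTP15 (−0.0015), PPAN (−0.0224), CAD (−0.0345) and LDHA (−0.0239), with DESeq2's size factors for CAD (−0.00087), and with the length trend removed for FBL (−0.0159), NHP2 (−0.0192) and NOP10 (−0.0676). With a library left out, signs turned for 21 uncalled genes, whose ranges were −0.066 to 0.041 for POLR1C, −0.14 to 0.016 for POLR1E, −0.0089 to 0.13 for RRN3, −0.045 to 0.31 for TAF1D, −0.067 to 0.11 for FBL, −0.0046 to 0.11 for NOP56, −0.042 to 0.095 for DKC1, −0.0082 to 0.12 for NHP2, −0.016 to 0.16 for NOP10, −0.030 to 0.10 for UTP15, −0.098 to 0.019 for UTP20, −0.15 to 0.036 for NOP14, −0.038 to 0.027 for BYSL, −0.070 to 0.25 for RRP12, −0.029 to 0.096 for WDR12, −0.083 to 0.31 for NOP16, −0.057 to 0.078 for PPAN, −0.044 to 0.12 for RRP1B, −0.014 to 0.093 for ODC1, −0.044 to 0.046 for CAD and −0.020 to 0.040 for LDHA. The cause of these turns was not tested. Leaving out a library leaves fewer samples from which the spread is estimated. With 2 libraries a group and at this depth, the intervals of 29 of the 39 genes lay within a 1.25-fold change in either direction. Such intervals still leave room for smaller changes, so that a gene that was not called is not shown to be equal between the groups.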

Other observations

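GENCODE v29 places 30 snoRNA genes inside 9 of the 39 genes on the same strand, 19 of box C/D and 11 of box H/ACA. The hosts are TAF1D, NOP56, NOP58, NCL, GNL3, WDR43, PPAN, DKC1 and ODC1. Of the 29 snoRNAs listed in the table, 21 had no fragment in any library and the highest count was 12 fragments (SNORA40 in C0), and their levels were not compared. Why so few fragments were assigned to them was not tested. The hosts had a median log2 fold change of 0.053, with 8 of 9 positive, and the other 30 genes one of 0.019, with 17 positive. Positive values made up 50.6% of all genes tested and 53.4% of the other genes in the expression range of the 39 genes. Whether hosts differ from the other genes was not tested. The values of TAF1D, NOP56, PPAN, DKC1 and ODC1 turned negative in at least 1 fit with a library left out.

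Ratios between 9 pairs of partner proteins, chosen after the values were seen, were computed on FPKM in each library and are given as values with no test. For 5 of them the groups did not overlap, where 43.2% of all tested genes did not overlap singly in CPM. No such share was computed over pairs of genes, so nothing is concluded from the count. POLR1B over POLR1A was 0.855 in V0, 0.811 in V1, 0.683 in C0 and 0.731 in C1, with no overlap between the groups. NOP58 over NOP56 was 0.592 in V0, 0.516 in V1, 0.638 in C0 and 0.645 in C1, also without overlap. NOP58 over FBL (mean 0.201 in DMSO, 0.234 in clofarabine), POLR1D over POLR1C (0.928 and 1.099) and WDR12 over PES1 (0.663 and 0.723) did not overlap either. For WDR12 over PES1 the groups nearly touched, at 0.713 in V0, 0.613 in V1, 0.731 in C0 and 0.715 in C1. NHP2, NOP10 and GAR1 over DKC1 overlapped between the groups, as did BOP1 over PES1.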
